A study of Mus musculus with 8 samples.

Results

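The genes described here are 37 proliferation and DNA replication genes of the mouse, taken from a table of 37991 genes by their symbols and not by their values. Of these, 16 act in S phase, when DNA is copied, and 21 act in mitosis, when the copied chromosomes are parted. All 37 were found in the table and all passed the filter on low counts in both kinds of library. None of them passed the main test between the groups, which 4.10% of all genes passed in polyA-selected (mRNA) and 4.93% in total RNA libraries. For most of them the 95% interval of the difference stayed within a 2-fold change, as for 55.0% and 62.1% of all genes. With samples paired by replicate number, which no label states, Ccne1, Foxm1 and Ccnb2 passed in mRNA and Foxm1 and Mki67 in total RNA libraries. In that fit 2936 and 886 of all genes tested passed.

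A dividing cell first builds replication origins, where the MCM helicase is loaded onto DNA, and cyclin E with its kinase then helps to start S phase. In mitosis, cyclin B with the kinase Cdk1 drives entry, motor proteins and Aurora kinases shape the spindle, and a checkpoint holds back chromosome parting until every chromosome is attached. S phase genes are classic targets of E2F factors, whereas mitosis genes are driven later by FOXM1 and by a complex that reads a short promoter element called CHR. Haematopoietic stem cells are mostly at rest, while the progenitors just downstream of them cycle, so that the level of these transcripts in a sorted fraction depends on its mix of cells.

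The study compared haematopoietic stem cells with and without Runx1, a transcription factor of blood cell development. All samples were bone marrow cells of C57BL/6J mice that were sorted as Flt3- LSK, with 24000 cells per sample. LSK cells lack lineage markers and carry Sca-1 and Kit on the surface, a fraction that holds stem cells and early progenitors. Synthetic ERCC transcripts were added to the RNA, and each sample gave a polyA-selected library, called an mRNA library here, and a total RNA library. WT samples were labelled wild type and carried floxed Runx1 (Runx1f/f), and Mut samples were labelled Runx1 deficient. The labels name no Cre driver, time of deletion or age for any group. There were 2 WT and 2 Mut-labelled libraries of each kind, 8 in all. Whether the 2 samples of a group were separate animals is not stated, and the p-values then reflect only how far these samples spread, which may be technical.

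The mRNA libraries held 35096252 to 37924699 counts on genes. The total RNA libraries held only 967694 to 1218437, since ribosomal RNA took 93.3 to 94.5% of their counts. Levels are given as CPM, which are counts divided by the gene total of the library after TMM correction and set to a common size. Runx1 itself was at 204 ± 5.34 CPM (SD, n = 2) in the WT and 845 ± 136 CPM (SD, n = 2) in the Mut-labelled mRNA libraries. Counts over the whole Runx1 gene were thus higher in the libraries labelled deficient, and a whole-gene count cannot check a deletion of part of the gene, so the groups are named by their labels throughout. Kit, a defining marker of the sort, was at 884 to 1100 CPM in the mRNA libraries. Ly6a, which encodes Sca-1, was lower at 23.7 to 38.6 CPM. Of 8 surface markers listed for these cells, of which the gate as described names only Kit and Sca-1, Cd48 and Procr were called in mRNA. Cd48, found on progenitors more than on stem cells, was at 47.6 and 42.6 CPM in WT against 181 and 179 CPM in Mut-labelled libraries (log2 fold change 1.996, adjusted p = 0.00239, edgeR). Procr, a stem cell marker, was at 21.7 and 26.3 CPM in WT against 4.06 and 6.89 CPM (log2 fold change -2.13, adjusted p = 0.0198). Slamf1, of the same list, went the other way and was not called. It was at 11.2 and 14.6 CPM in WT against 21.3 and 22.7 CPM (log2 fold change 0.77, adjusted p = 0.132, edgeR). What part the mix of cells has in the values of the members was not tested. The 12 lineage markers summed to 73.8 to 80.2 CPM. Flt3, whose protein the gate leaves out, was at 117 and 155 CPM in WT and at 57.3 and 87.6 CPM in Mut-labelled mRNA libraries.

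Promoters are shown for 5 members that the values below turn on, because S phase and mitosis genes carried different elements there. Each sequence is the 250 bases before the RefSeq start of the gene on GRCm38.p6, 5′ to 3′ on the strand of the gene. The counts themselves were made on mm9, per the submitters' processing notes. Capitals in Mcm6 and Mcm5 mark letters of the E2F type, which were TTTCCCGC, TTTGGCGC, TTTCGCGC or TTTGCCGC on either strand. Capitals in Cdk1 and Top2a mark the CHR letters, TTTGAA on either strand, and Ccne1 held neither. Mcm6 lies at chr1:128359706-128359955 (- strand), Mcm5 at chr8:75109259-75109508 (+), Cdk1 at chr10:69352913-69353162 (-), Top2a at chr11:99024190-99024439 (-) and Ccne1 at chr7:38107491-38107740 (-).
Mcm6: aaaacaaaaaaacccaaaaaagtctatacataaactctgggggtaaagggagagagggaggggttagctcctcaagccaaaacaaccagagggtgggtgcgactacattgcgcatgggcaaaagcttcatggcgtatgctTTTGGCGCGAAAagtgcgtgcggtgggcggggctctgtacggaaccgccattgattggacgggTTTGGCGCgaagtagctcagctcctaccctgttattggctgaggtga
Mcm5: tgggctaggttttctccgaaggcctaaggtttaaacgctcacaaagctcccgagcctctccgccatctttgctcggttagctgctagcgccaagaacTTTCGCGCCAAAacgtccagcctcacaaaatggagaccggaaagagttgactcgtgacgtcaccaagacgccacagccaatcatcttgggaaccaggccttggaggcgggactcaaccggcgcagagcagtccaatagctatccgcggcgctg
Cdk1: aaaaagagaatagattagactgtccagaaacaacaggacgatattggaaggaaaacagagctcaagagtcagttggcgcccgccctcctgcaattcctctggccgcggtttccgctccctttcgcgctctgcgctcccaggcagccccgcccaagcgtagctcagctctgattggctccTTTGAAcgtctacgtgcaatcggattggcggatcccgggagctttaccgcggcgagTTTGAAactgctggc
Top2a: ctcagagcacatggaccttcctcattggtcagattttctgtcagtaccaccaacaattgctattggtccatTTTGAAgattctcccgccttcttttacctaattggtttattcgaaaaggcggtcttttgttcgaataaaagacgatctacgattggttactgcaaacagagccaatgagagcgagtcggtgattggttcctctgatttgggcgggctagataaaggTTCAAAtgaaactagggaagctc
Ccne1: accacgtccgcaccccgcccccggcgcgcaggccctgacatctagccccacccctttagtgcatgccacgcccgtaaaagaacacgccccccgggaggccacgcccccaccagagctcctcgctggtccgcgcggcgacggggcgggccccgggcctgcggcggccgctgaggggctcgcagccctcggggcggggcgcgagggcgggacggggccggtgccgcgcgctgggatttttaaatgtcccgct
The first run of capitals in Mcm6 and the run in Mcm5 each hold 2 matches that overlap on opposite strands. The promoter of Cdk1 also held a match to the E2F letters, left in lower case.

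RefSeq promoters of 300 bases, reaching 50 bases past the start, were found for 13 of the 16 S phase members and 16 of the 21 mitosis members. The E2F letters occurred in 5 of the 13 S phase promoters (38.5%) and in 1 of the 16 mitosis promoters (6.25%), that of Cdk1. Among the promoters of 27025 genes the share was 2.60%. The CHR letters occurred in 2 S phase promoters (15.4%) and in 11 mitosis promoters (68.8%), against 20.2% of all promoters. CCAAT, the box bound by NF-Y, occurred in 69.2% of S phase and 87.5% of mitosis promoters, against 41.1% of all. A match is only a run of letters, and a missing match says only that these letters are not in this window.

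The members were among the better expressed genes of these cells. Per kilobase of exon, with lengths from GENCODE M21, the median S phase member had 39.7 CPM per kb in the mRNA libraries and the median mitosis member 23.1, against 6.07 for all genes tested that had a length. Mcm6, a subunit of the replicative helicase, was highest at 121 CPM per kb, above 98.0% of genes. Mcm3 and Mcm5, of the same complex, followed at 118 and 107 CPM per kb. Among mitosis members Ccnb2, which encodes cyclin B2, was highest at 71.3 CPM per kb, and Top2a, the topoisomerase that untangles copied chromosomes, was next at 69.8. The 3 lowest members were Ccne2, Ccne1 and Ccnb1 (cyclins E2, E1 and B1), at 7.06, 6.28 and 5.37 CPM per kb. Cyclin B1 was thus near the median of all genes, far under cyclin B2. Exons of some members overlap a gene on the other strand, by 67.3% of exon bases for Gins2 (with Gse1), 29.3% for Kif20a, 22.8% for Ube2c, 17.4% for Ccne2 and 12.5% for Ccna2. Whether the counting used strand is not given in the sources used here, so values of these genes are uncertain.

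In the mRNA libraries none of the 16 S phase members was called between the groups at an adjusted p under 0.05 (edgeR's quasi-likelihood test, two-sided, with Benjamini-Hochberg adjustment over all 17128 genes tested). Over all genes 703 were called, 4.10% of those tested, 344 higher and 359 lower in the Mut-labelled libraries. The log2 fold change of Mut-labelled over WT, given as such from here on, was negative for 15 of the 16 with a median of -0.08, against -0.01 over all genes. For 15 of the 16 the 95% interval lay within a 2-fold change in either direction, as it did for 55.0% of all genes. The sign of this median hung on single libraries. It was 0.16 without Mut-labelled replicate 2, with 15 members positive, and 0.0026 without WT replicate 1, with 9 positive. It was -0.34 without Mut-labelled replicate 1, with 0 positive, and -0.17 without WT replicate 2, with 1 positive. In bulk samples fewer cells of a type and less RNA per cell cannot be told apart, so a level of an S phase transcript is not a count of cells in S phase.

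**Figure D1:**
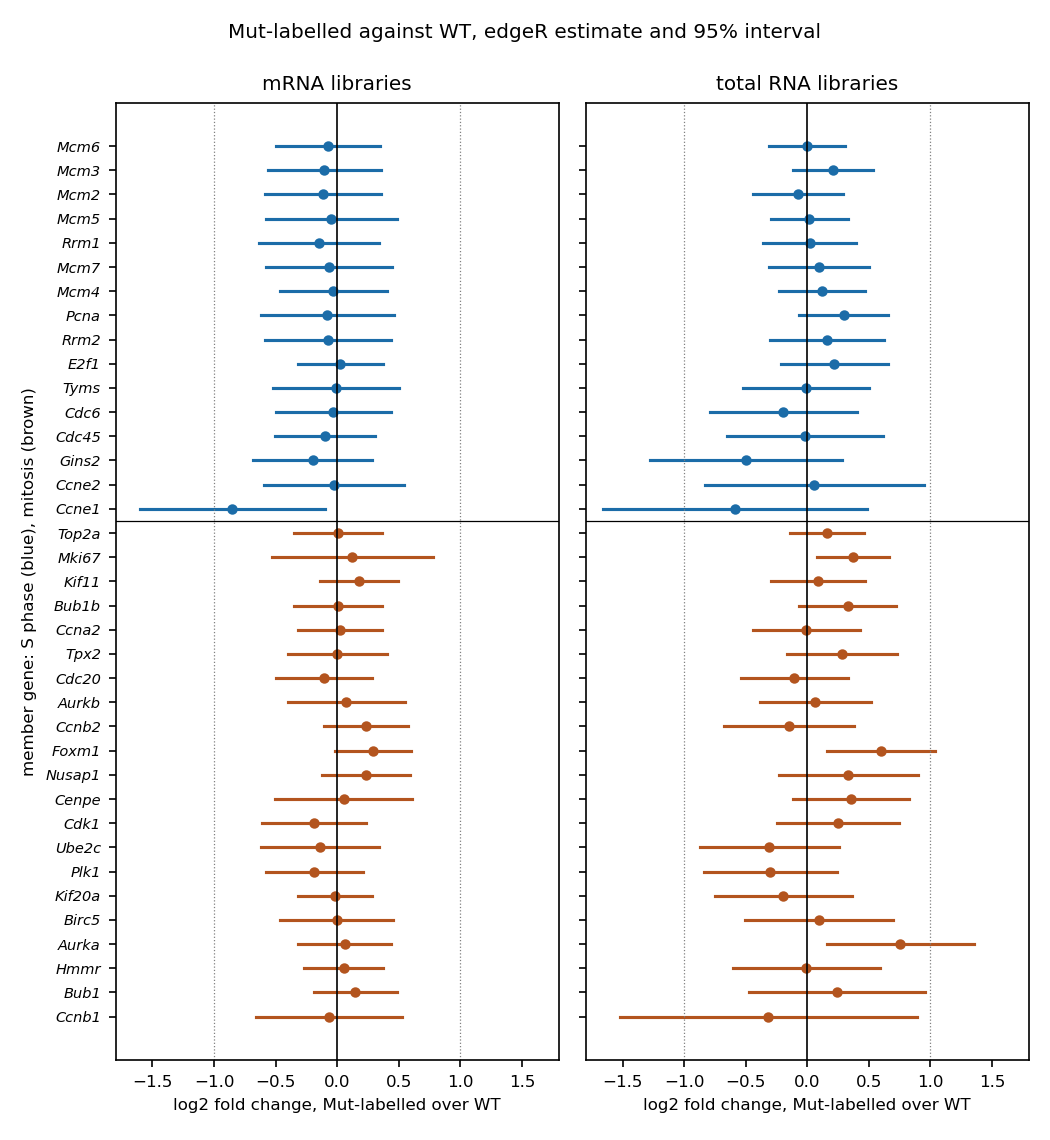
Log2 fold change of Mut-labelled over WT libraries for each member (points) with its 95% interval (lines), in mRNA libraries (left) and total RNA libraries (right), S phase members in blue and mitosis members in brown. Dotted lines mark a 2-fold change. Intervals of Ccne1 in mRNA and of Foxm1, Mki67 and Aurka in total RNA leave out 0, and no member passed the adjusted threshold.

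Of the MCM helicase subunits, 4 were the most abundant S phase members by mean log2 CPM. Mcm6 had 604 and 553 CPM in WT against 609 and 489 CPM in Mut-labelled mRNA libraries. The WT values lay inside the range of the Mut-labelled ones, and the log2 fold change was -0.08 (SE 0.17, adjusted p = 0.924, edgeR). Mcm3 had 482 and 433 CPM in WT against 489 and 362 CPM in Mut-labelled libraries, a log2 fold change of -0.10 (SE 0.19, adjusted p = 0.898). Mcm2 had 476 and 419 CPM against 476 and 350.1 CPM, a log2 fold change of -0.12 (SE 0.19, adjusted p = 0.884). Mcm5 had 468 and 398 CPM against 499 and 338 CPM, a log2 fold change of -0.05 (SE 0.22, adjusted p = 0.963). In each of these 4 genes the Mut-labelled pair stood farther apart than the WT pair, with replicate 1 high and replicate 2 low. Mcm7 and Mcm4, the other members of the ring, had log2 fold changes of -0.07 and -0.03.

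Genes of origin firing, nucleotide supply and the replication clamp were likewise lowest in Mut-labelled replicate 2. Rrm1, the large subunit of ribonucleotide reductase, which makes deoxynucleotides, had 368 and 325 CPM in WT against 368 and 259 CPM in Mut-labelled mRNA libraries. Its log2 fold change was -0.15 (SE 0.20, adjusted p = 0.852, edgeR). Gins2, a part of the helicase holoenzyme, had 36.2 and 34.5 CPM against 35.8 and 25.8 CPM, a log2 fold change of -0.20 (SE 0.20, adjusted p = 0.774). The other 7, namely Pcna, Rrm2, Tyms, Cdc6, Cdc45, E2f1 and Ccne2, had log2 fold changes from -0.10 (Cdc45) to 0.02 (E2f1, the factor that drives many S phase genes). Pcna encodes the sliding clamp of the polymerases, and its log2 fold change was -0.08, with 246 and 213 CPM in WT against 263 and 172 CPM in Mut-labelled libraries.

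Ccne1, which encodes the cyclin that helps to start S phase, was the member farthest apart between the groups in the mRNA libraries. It had 26.8 and 16.2 CPM in WT against 13.9 and 9.96 CPM in the Mut-labelled libraries. The groups did not overlap, which was true of 44.6% of all genes tested, and the WT values spread widely. The log2 fold change was -0.85 (SE 0.31, 95% interval -1.60 to -0.10), with an unadjusted p of 0.0321 and an adjusted p of 0.244 in edgeR's test, so that it was not called. An unadjusted p under 0.05 was found for 1 of the 16 S phase members, Ccne1, and for 15.7% of all genes. Without Mut-labelled replicate 1 Ccne1 passed the threshold, at -1.11 and an adjusted p of 0.0462. Over all alternatives tried its adjusted p ran from 0.00358 to 0.999, and its log2 fold change from -1.19 to -0.44. In the total RNA libraries it had 10.7 and 15.1 CPM in WT against 9.70 and 7.54 CPM in the Mut-labelled libraries and a log2 fold change of -0.59 (SE 0.53, adjusted p = 0.691). Its relative Ccne2 had 27.7 and 22.1 CPM against 28.7 and 20.2 CPM in the mRNA libraries, a log2 fold change of -0.03, and the groups overlapped.

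**Figure D2:**
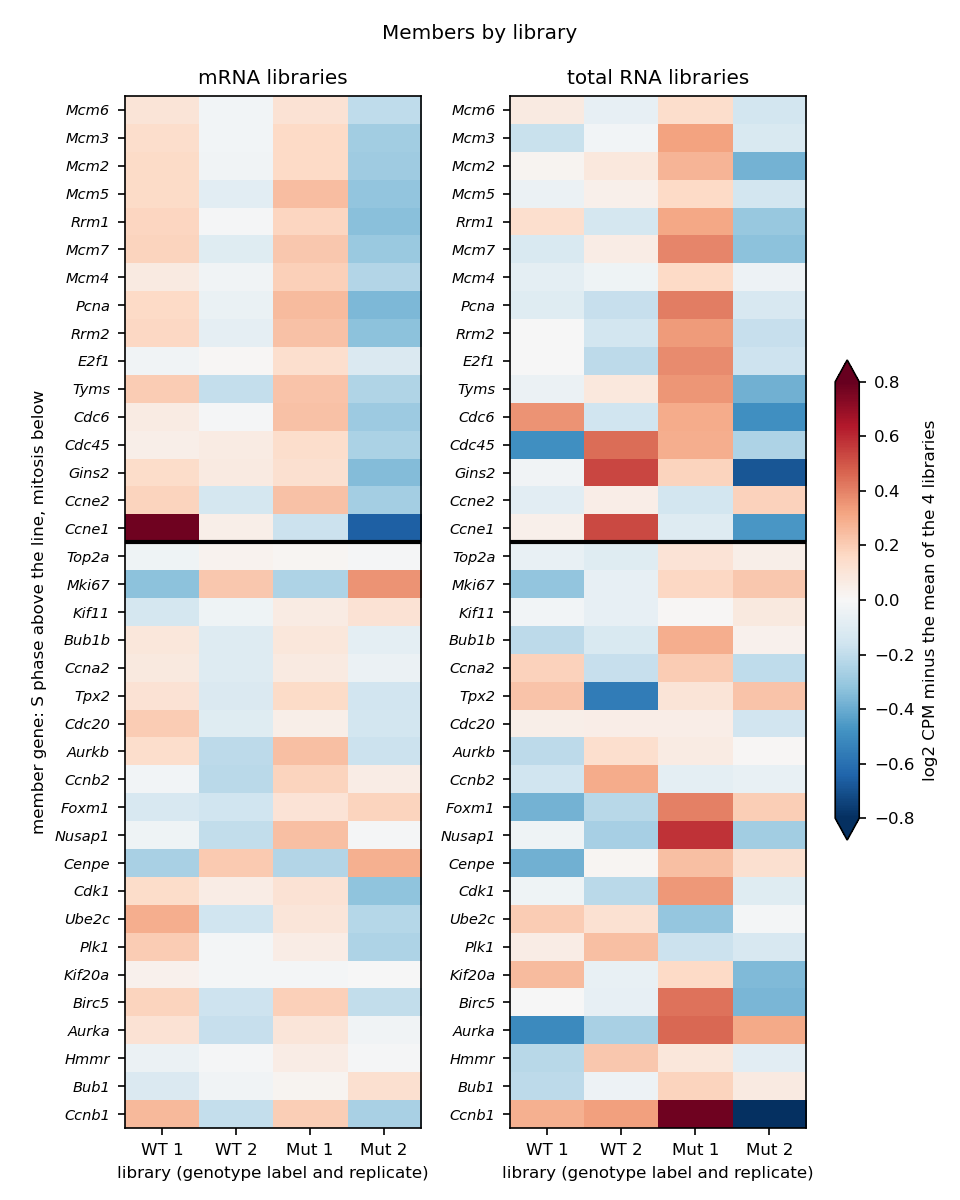
Log2 CPM of each member (rows, S phase above the line and mitosis below, each from the most to the least abundant) in each library (columns), minus its mean over the 4 libraries of that kind. Red is higher and blue lower, and colours are full at 0.8 either way. In the mRNA libraries the column of Mut-labelled replicate 2 is blue for all 16 S phase members, while Mki67 and Cenpe are red in replicate 2 of both groups.

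The clearest pattern of the S phase members lay between libraries of 1 group and not between the groups. In the mRNA libraries all 16 had their lowest value in Mut-labelled replicate 2, against 28.4% of all genes tested, and in the total RNA libraries 10 of 16 did, against 25.8%. The median S phase member was -0.48 on the log2 scale in Mut-labelled replicate 2 relative to replicate 1 in the mRNA libraries (16 of 16 lower) and -0.54 in the total RNA libraries (15 of 16 lower). The matching median of all genes was -0.00 in mRNA and 0.01 in total RNA. Between the WT replicates the S phase median was -0.18 in mRNA, with 14 of 16 lower in replicate 2, and 0.08 in total RNA, with 6 of 16 lower. The gap between the Mut-labelled samples thus appeared in both libraries made from them, whereas the smaller one between the WT samples appeared in the mRNA libraries and not in the total RNA libraries. Libraries of both kinds came from 1 sorted sample by their names, so that the second kind repeats the library and not the sort.

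In mitosis members the same gap was smaller, a difference that was not tested. Their median in Mut-labelled replicate 2 relative to replicate 1 was -0.13 in mRNA and -0.16 in total RNA, with 15 of 21 lower in each. Cdk1, Ccnb1, Aurkb and Birc5 were at -0.44, -0.46, -0.41 and -0.39 in the mRNA libraries. These lay inside the S phase range of -0.62 to -0.25, though less far down than its median of -0.48. Summed over genes, the S phase members had 3798 and 3356 CPM in WT against 3908 and 2845 CPM in Mut-labelled mRNA libraries. The mitosis members had 2935 and 3005 CPM in WT against 3043 and 3117 CPM in Mut-labelled mRNA libraries. The ratio of the S phase sum to the mitosis sum was 1.29 and 1.12 in WT and 1.28 and 0.913 in the Mut-labelled mRNA libraries. In total RNA it was 1.10 and 1.07 in WT and 1.10 and 0.847 in the Mut-labelled libraries. Mut-labelled replicate 2 was lowest in both kinds. Mki67 alone, at 505 CPM in Mut-labelled replicate 1 and 769 CPM in replicate 2, carried much of the mitosis sum. Without Mki67, a choice made after seeing the data, the ratio was 1.54 and 1.45 in WT and 1.54 and 1.21 in Mut-labelled mRNA libraries. In total RNA it was 1.49 and 1.53 in WT and 1.57 and 1.26 in the Mut-labelled libraries. Mut-labelled replicate 2 was again lowest, but its S phase sum was above its mitosis sum.

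**Figure D3:**
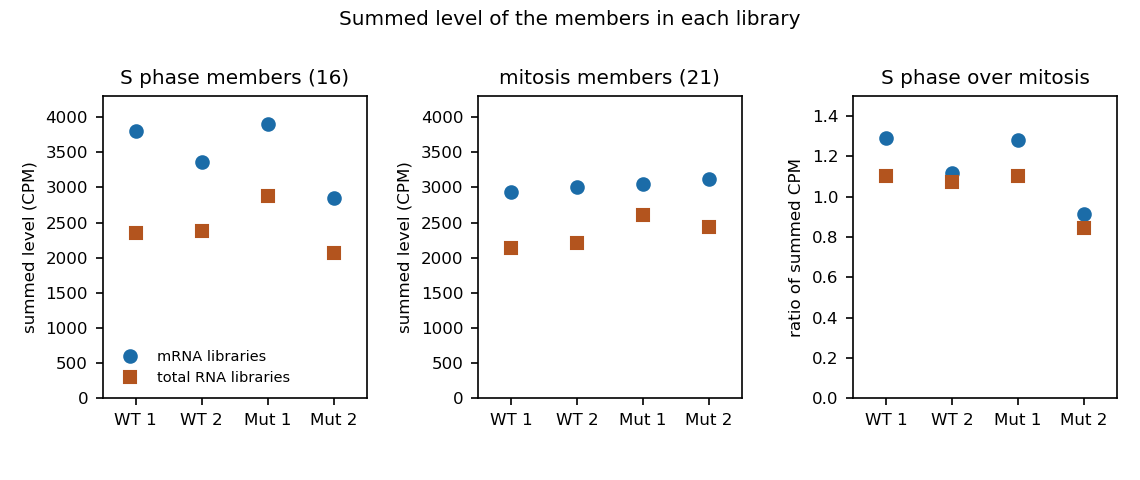
Summed CPM of the 16 S phase members (left) and the 21 mitosis members (middle), and the ratio of the sums (right), in each mRNA library (circles) and total RNA library (squares). The ratio is 0.913 and 0.847 in Mut-labelled replicate 2 and above 1 in the other libraries, and Mki67 is among the mitosis members summed.

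Several marker lists of other cell types, that of neutrophil precursors among them, were also lower in Mut-labelled replicate 2 than in replicate 1. The 7 neutrophil precursor markers summed to 2128 and 1771 CPM in WT against 2591 and 1436 CPM in Mut-labelled mRNA libraries, the same order of libraries as the S phase sum. In Mut-labelled replicate 2, 6 of the 7 were lower than in replicate 1, and none was at 0. Mpo, the most abundant of them, which encodes myeloperoxidase, had 1498 and 1297 CPM in WT against 1885 and 1044 CPM in Mut-labelled libraries. Between the groups none of the 7 was called. In the total RNA libraries they summed to 1284 and 1429 CPM in WT against 1793 and 1139 CPM in the Mut-labelled libraries. Of the other lists in mRNA, all 11 mature neutrophil markers, all 12 megakaryocyte markers and 16 of 17 erythroid markers were lower in Mut-labelled replicate 2 than in replicate 1. Of all genes tested 50.1% were. The stromal marker Col1a1, singled out after its values were seen, had 53.9 and 45.1 CPM in WT against 54.2 and 1.505 CPM in Mut-labelled mRNA libraries, while Lum, of the same list, was at 0 in all. Col1a1 did not stand for its list of 12 stromal and endothelial markers, of which 6 were lower in Mut-labelled replicate 2 than in replicate 1. That list summed to 323 and 293 CPM in WT against 301 and 295 CPM in Mut-labelled mRNA libraries. The sum of the 13 B cell and plasma cell markers, though not the list as a whole, was higher in replicate 2 of both groups. It was 1286 and 9875 CPM in WT against 625 and 2318 CPM in Mut-labelled mRNA libraries. Most of the rise lay in Igkc, at 592 and 6735 CPM in WT against 268 and 1390 CPM in Mut-labelled libraries. Of the 13, 6 were lower in replicate 2 in WT and 7 in Mut-labelled libraries. The part of any of these cells in the S phase pattern was not tested. Marker lists also differed between the groups in mRNA, where 4.10% of all genes tested were called. Erythroid markers summed to 1394 to 1773 CPM in WT and 519 to 718 CPM in Mut-labelled mRNA libraries, with 6 of 17 called lower and none at 0. Mature neutrophil markers summed to 41.9 to 49.8 CPM in WT and 167 to 530 CPM in Mut-labelled libraries, with 3 of 10 tested called higher. Megakaryocyte markers summed to 881 to 958 and 2083 to 2298 CPM, with 4 of 12 called higher and 1 lower. Mast cell and basophil markers summed to 112 to 168 and 549 to 693 CPM, with 2 of 8 tested called higher and 2 lower. Cpa3 made up most of the Mut-labelled sum of this list, at 28.7 and 19.4 CPM in WT against 455 and 514 CPM. The median log2 fold change of the 8 was -3.66, with 5 negative and 3 positive. The part of these lists in the values of the members was not tested either.

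In the mRNA libraries none of the 21 mitosis members was called, against 4.10% of all genes tested. An unadjusted p under 0.05 (edgeR) was found for 0 of them and for 15.7% of all genes. For all 21 the interval lay within a 2-fold change, as it did for 55.0% of all genes. The median log2 fold change of the 21 was 0.02, with 14 positive and 7 negative. In 6 of the 21 (Bub1, Ccnb2, Foxm1, Hmmr, Kif11 and Nusap1) both Mut-labelled values lay above both WT values, and in 0 below, where 44.6% of all genes did not overlap in one direction or the other. Top2a had 613 and 642 CPM in WT against 636 and 625 CPM in Mut-labelled libraries, a log2 fold change of 0.01 (SE 0.15, adjusted p = 0.994, edgeR). Its 95% interval ran from -0.35 to 0.37. Mki67, which encodes the proliferation marker Ki-67, had 476 and 694 CPM in WT against 505 and 769 CPM in Mut-labelled libraries. Replicate 2 was the higher one in both groups, and the log2 fold change was 0.12 (SE 0.27, adjusted p = 0.918).

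Foxm1, which encodes a transcription factor of mitosis genes, had the largest log2 fold change of the mitosis members in the mRNA libraries. It had 90.0 and 88.0 CPM in WT against 106 and 112 CPM in the Mut-labelled libraries, so that the groups stood apart by more than either pair. The log2 fold change was 0.29 (SE 0.13, 95% interval -0.01 to 0.60), with an adjusted p of 0.348. Ccnb2 had 107 and 93.7 CPM in WT against 123 and 113 CPM in Mut-labelled libraries, a log2 fold change of 0.24 (SE 0.14, adjusted p = 0.539). Nusap1, a spindle microtubule protein, had 86.0 and 77.0 CPM against 104 and 87.8 CPM, a log2 fold change of 0.24 (SE 0.15, adjusted p = 0.568). Kif11, the motor that pushes spindle poles apart, had 150.3 and 162 CPM against 173 and 179 CPM, a log2 fold change of 0.18 (SE 0.13, adjusted p = 0.662). None of these 3 intervals left out 0.

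The other mitosis members lay between -0.19 and 0.15 on the log2 scale in mRNA. Cdk1, the kinase that drives entry into mitosis, had 93.7 and 88.2 CPM in WT against 91.9 and 67.7 CPM in Mut-labelled mRNA libraries, lowest in replicate 2 as the S phase members were. Its log2 fold change was -0.19 (SE 0.18, adjusted p = 0.746, edgeR). Bub1b, which encodes the checkpoint protein BubR1, had 165 and 145 CPM against 165 and 147 CPM, a log2 fold change of 0.01 (SE 0.15, adjusted p = 0.994). The cyclins Ccna2 and Ccnb1 were at 0.02 and -0.06, the Aurora kinases Aurka and Aurkb at 0.06 and 0.07, and Plk1, the polo-like kinase, at -0.18. Genes that act on the anaphase-promoting complex were at -0.11 (Cdc20) and -0.14 (Ube2c). Birc5 (survivin, a partner of Aurora B) was at -0.01, Bub1 at 0.15, Cenpe at 0.05, Hmmr at 0.05, Kif20a at -0.02 and Tpx2 at 0.00.

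In the total RNA libraries, which were far shallower, none of the 37 members was called, against 4.93% of the 10546 genes tested (311 higher, 209 lower). The S phase median was 0.02 with 9 of 16 positive, and the mitosis median was 0.10 with 13 of 21 positive, against -0.00 over all genes. Intervals lay within a 2-fold change for 14 S phase and 18 mitosis members, and for 62.1% of all genes. An unadjusted p under 0.05 was found for 3 of the 37, Foxm1, Mki67 and Aurka, and for 14.9% of all genes. Both Mut-labelled values lay above both WT values in 8 mitosis members (Aurka, Bub1, Bub1b, Cenpe, Foxm1, Kif11, Mki67 and Top2a) and below them in Plk1, Ube2c and the S phase member Ccne1, against 44.0% of all genes that did not overlap in either direction. The groups did not overlap in both kinds of library for Bub1, Foxm1 and Kif11, with Mut-labelled higher, and for Ccne1, with Mut-labelled lower. The share of all genes that did so in both kinds was not counted, so no more than a description is given. In total RNA Ccne1 rested on 11 and 15 counts in WT against 9 and 9 in Mut-labelled libraries. Bub1 had 22 and 24 counts against 26 and 31, and Foxm1 63 and 68 against 98 and 109. Kif11 had 119 and 112 counts against 110 and 148, before scaling. Both kinds came from the same samples, so the second kind is no independent repeat.

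Foxm1 had 61.3 and 68.3 CPM in WT against 106 and 91.4 CPM in the Mut-labelled total RNA libraries. Its log2 fold change there was 0.60 (SE 0.21, 95% interval 0.16 to 1.03, adjusted p = 0.120, edgeR). Mki67 had 557 and 664 CPM in WT against 776 and 805 CPM in Mut-labelled libraries, a log2 fold change of 0.37 (SE 0.14, adjusted p = 0.161). Unlike in the mRNA libraries, the 2 groups of Mki67 did not overlap. Aurka had 25.3 and 30.1 CPM against 49.6 and 44.4 CPM, a log2 fold change of 0.76 (SE 0.29, adjusted p = 0.166), whereas its mRNA libraries overlapped. Whether the difference between the groups depended on the kind of library was tested over all 8 libraries, without pairing the 2 libraries of a sample. No gene was called (0% of 17416, with 702 at an unadjusted p under 0.05 and 18 called by DESeq2), none of the 37 members among them. With the sample as a block 99 genes were called, and 0 of the members. In simulated counts the unpaired test recovered 32% of 2-fold differences of this kind, so its power was low for the genes simulated. Those genes were picked by their mean count over all 8 libraries, so the share need not hold for the members. For 29 of the 37 members the 95% interval of this difference lay within a 2-fold change, as for 5940 of the 17416 genes. Aurka had the largest difference of the members, 0.74, at an unadjusted p of 0.0258 in edgeR's test.

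The kinds of library also gave the members different levels. The log2 ratio of the total RNA level to the mRNA level, each in CPM of its own kind, had a median of -0.52 for S phase and -0.50 for mitosis members, against -0.28 for all genes tested in both kinds. Mki67 was the highest of the members at 0.21 and Ccnb1 the lowest at -1.35. Ccnb1 had only 4 to 14 counts in the total RNA libraries, and its ratio ran from -2.48 to -0.76 over the samples. Kinds were scaled apart, so these are descriptions of level with no test.

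Exon length went with the difference between replicates in the mRNA libraries. In replicate 2 relative to replicate 1, the longest 20% of all genes had a median log2 ratio of 0.15 in WT and 0.17 in Mut-labelled libraries, and the shortest 20% -0.17 and -0.22. Across the 21 mitosis members, Spearman's rho between exon length and this ratio was 0.78 in WT and 0.57 in Mut-labelled libraries, against 0.24 in each across all genes, which all share the same libraries. Across the 16 S phase members it was 0.09 and 0.13. In total RNA rho was -0.03 and 0.07 for mitosis members and -0.21 and -0.46 for S phase members. Mki67 and Cenpe, which encodes a kinetochore motor, are among the longest members, and their log2 ratios were 0.54 and 0.47 in WT and 0.61 and 0.52 in Mut-labelled libraries. Top2a is longer than Cenpe, and its ratios were 0.07 and -0.03. Bub1 and Kif11 were the other 2 members higher in replicate 2 of both groups. Rrm1, the longest S phase member, was at -0.18 and -0.50, unlike Mki67. The part of length or RNA quality in these ratios was not tested.

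**Figure D4:**
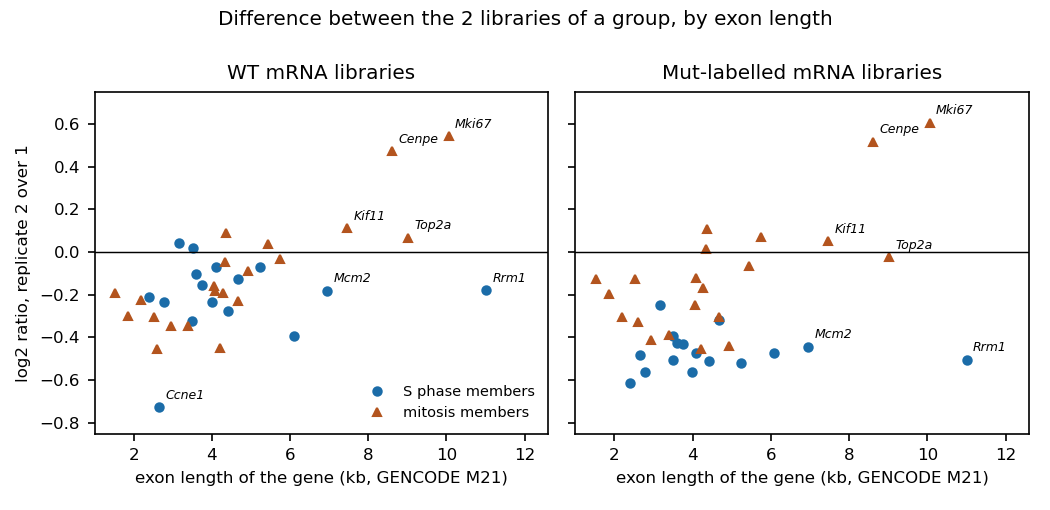
Log2 ratio of replicate 2 over replicate 1 (vertical axis) against exon length in kb (horizontal axis) for S phase members (circles) and mitosis members (triangles), in WT (left) and Mut-labelled (right) mRNA libraries. Mki67 and Cenpe lie above 0.4 in both groups. S phase members other than Ccne1 lie lower in the Mut-labelled panel, where all S phase members are under 0. Ccne1 is at -0.73 in the WT panel and -0.48 in the Mut-labelled panel.

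Scaling by the ERCC transcripts in place of gene counts moved all genes together. ERCC counts took 0.647 and 0.312% of gene and ERCC counts in the WT and 0.883 and 0.380% in the Mut-labelled mRNA libraries, so that in mRNA the pairs of each group differed more than the groups. In total RNA they took 0.412 and 0.561% in WT and 0.766 and 1.35% in the Mut-labelled libraries, and the groups did not overlap. Under ERCC scaling the median of all genes shifted to -0.38 in mRNA and -1.10 in total RNA. Calls were 16 higher and 119 lower in mRNA and 12 higher and 339 lower in total RNA. Relative to that shift the S phase median was -0.13 and the mitosis median 0.04 in mRNA, and 0.10 and 0.18 in total RNA. Before the shift was taken off, all 37 members were negative in both kinds, and none was called, so that the directions given above are relative to the bulk of genes.

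Beyond the members, 209 other cell cycle genes in 5 lists were read from the same fits. In the mRNA libraries all 209 were tested and 0 were called, against 4.10% of all genes. Of the 209, 9 had an unadjusted p under 0.05 (edgeR), against 15.7% of all genes, and their median log2 fold change was -0.02. In the total RNA libraries 198 were tested and 1 was called, against 4.93% of all genes, with a median of 0.08. There 20 of the 198 had an unadjusted p under 0.05, against 14.9% of all genes. The gene called was Depdc1b, which is expressed in dividing cells. It rose from 39.0 and 27.1 CPM in WT to 89.4 and 64.5 CPM in the Mut-labelled total RNA libraries, a log2 fold change of 1.20 (SE 0.27, adjusted p = 0.00372, edgeR). In the mRNA libraries it had 65.3 and 48.9 CPM against 107 and 73.6 CPM, a log2 fold change of 0.66 with an adjusted p of 0.213.

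The 57 other origin and fork genes had a median of -0.05 in mRNA and 0.03 in total RNA. In mRNA 43 of the 57 were lowest in Mut-labelled replicate 2, against 28.4% of all genes tested. Dna2, a nuclease and helicase, had 97.8 and 94.7 CPM in WT against 77.3 and 66.4 CPM in Mut-labelled mRNA libraries, a log2 fold change of -0.42 (adjusted p = 0.190, edgeR). Recql4, a helicase of origin firing, was at -0.49 (adjusted p = 0.191). In total RNA Gins3, of the same complex as Gins2, was at -1.05 (adjusted p = 0.285) and Rfc5, of the clamp loader, at -0.63 (adjusted p = 0.255). The 20 other nucleotide supply genes had medians of -0.16 and -0.14. In mRNA 16 of the 20 were negative, against 8809 of all 17128 genes tested. Of the 20, 2 had an unadjusted p under 0.05 (edgeR) in mRNA, against 15.7% of all genes, and 7 in total RNA, against 14.9%. In either kind 0 of the 20 were called, against 4.10% of all genes in mRNA and 4.93% in total RNA. Cad, the enzyme that starts pyrimidine synthesis, had 453 and 433 CPM in WT against 326 and 309 CPM in Mut-labelled mRNA libraries, with a log2 fold change of -0.48 (adjusted p = 0.147). Mthfd1, a folate enzyme, was at -0.62 (adjusted p = 0.146), and Shmt1, which feeds carbon into thymidylate synthesis, was at -0.80 in total RNA (adjusted p = 0.0515). Nme1, a nucleoside diphosphate kinase, was at -0.67 in total RNA (adjusted p = 0.280).

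The 64 other spindle and kinetochore genes had a median of 0.02 in mRNA and 0.18 over the 60 tested in total RNA. Sgo2a, which protects centromere cohesion, and Kif24, a kinesin, had the largest differences there at an unadjusted p under 0.05, with 1.24 (adjusted p = 0.223) and 0.75 (adjusted p = 0.188, edgeR). The 48 other genes of mitotic entry, exit and condensation had medians of -0.00 and 0.12. Cdc25b, the phosphatase that activates Cdk1, had log2 fold changes of 0.46 in mRNA and 0.70 in total RNA (adjusted p = 0.225 and 0.176), and Wee1, the kinase that restrains Cdk1, was at -0.45 in total RNA (adjusted p = 0.254). The 20 other transcription regulators of the cell cycle had medians of 0.01 and -0.03. E2f6, a repressor of the E2F family, had 77.9 and 72.5 CPM in WT against 57.9 and 49.7 CPM in Mut-labelled mRNA libraries, a log2 fold change of -0.48 (adjusted p = 0.148). Tfdp2, a partner of E2F factors, was at -0.40 in mRNA (adjusted p = 0.296). In total RNA E2f2, an activator of the family, was at 0.83 (adjusted p = 0.178) and Rbl2, a relative of the retinoblastoma protein, at 0.44 (adjusted p = 0.289). None of these named genes other than Depdc1b passed the threshold.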

How the data were processed

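RNA was sequenced from 2 WT and 2 Mut-labelled samples as mRNA and as total RNA libraries. The authors deposited raw counts per gene, whole numbers with no normalisation. Per the submitters' processing notes the tools were TopHat, featureCounts and edgeR and the build was mm9, with no version given. The table had 38086 entries: 37991 genes, 92 ERCC transcripts and 3 rRNA species, and the last 2 kinds were left out of library totals and tests. Symbols and exon lengths came from GENCODE M21, which matched 32919 identifiers, and promoters from RefSeq (GRCm38.p6).

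The test, made apart in mRNA and in total RNA libraries, was edgeR's quasi-likelihood test (edgeR 4.0.16 in R 4.3.3, with TMM scaling, filterByExpr, glmQLFit with robust estimation, no replicate block). Intervals are the estimate and its SE with the fit's degrees of freedom. An exact permutation test of 2 against 2 libraries cannot go below p = 0.333, so none was made. The script was tested on simulated data. Alternatives were DESeq2 1.42.0 (size factors and test), ERCC scaling, no filter, a replicate block and each library left out. A fit without robust estimation was added after seeing the data.

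The members and lists were chosen with earlier results of these data known. Members named in full were, in S phase and in mitosis, the 4 most abundant and the 4 with the largest fold change in the mRNA libraries. In other lists they were the genes called and up to 2 of the largest changes at an unadjusted p under 0.05. Aurka, Pcna, Ccne2, Cd48, Procr, Slamf1, Col1a1, Cpa3 and Igkc were added after their values were seen.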

Additional observations from a re-analysis of the deposited data

How the results depend on the processing

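With 2 libraries a group, precision is limited by the spread between samples, and in total RNA also by depth. No member was called with DESeq2 scaling or test, with ERCC scaling, without the filter or without robust estimation. Genes called in mRNA (703) were 1615 with DESeq2's test, 135 with ERCC scaling and 562 to 1354 with 1 library left out. Those in total RNA (520) were 203 with DESeq2's test. Genes whose difference depended on the kind (0) were 18 with DESeq2's test, 12 without the filter and 0 to 26 with 1 library left out. S phase members called in mRNA were 0 to 1 with 1 library left out.

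Replicate numbers were not taken to pair the samples, since there are 2 pairs and no label says so. Log2 ratios of replicate 2 over 1 in the 2 genotypes had Pearson's r of 0.28 over all genes in mRNA and 0.19 in total RNA, and of 0.75 and 0.065 over the 37 members (31 and 16 of 37 with 1 sign in both). For the dependence on kind the block was the sample, since both libraries of a sample carry its name, and 99 genes were called. With a replicate block 2936 genes were called in mRNA and 886 in total RNA. Members called were then 1 of S phase and 2 of mitosis in mRNA, namely Ccne1 (adjusted p = 0.00358), Foxm1 (0.0166) and Ccnb2 (0.0436), and 2 of mitosis in total RNA, Foxm1 (0.0427) and Mki67 (0.0128), all from edgeR.

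ERCC scaling moved the S phase median to -0.51 in mRNA and -1.001 in total RNA and the mitosis median to -0.34 and -0.92. It turned the log2 fold change in mRNA of Top2a to -0.38, Mki67 to -0.23, Kif11 to -0.21, Bub1b to -0.37, Foxm1 to -0.063, Nusap1 to -0.16 and Ccnb2 to -0.13. In total RNA it turned Mcm3 to -0.80, Mcm5 to -1.02, Rrm1 to -1.005, Top2a to -0.92, Mki67 to -0.70, Kif11 to -1.02, Bub1b to -0.72, Foxm1 to -0.45, Nusap1 to -0.66 and Cdk1 to -0.79.

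With 1 library left out, the S phase median ran from -0.34 to 0.16 in mRNA and -0.21 to 0.24 in total RNA, and the mitosis median from -0.050 to 0.10 and 0.033 to 0.22. In mRNA the log2 fold change then ran from -0.24 to 0.083 for Mcm6, -0.34 to 0.10 for Mcm3, -0.36 to 0.10 for Mcm2, -0.36 to 0.21 for Mcm5, -0.46 to 0.024 for Gins2, -0.42 to 0.092 for Rrm1, -0.030 to 0.054 for Top2a, -0.21 to 0.43 for Mki67, -0.082 to 0.10 for Bub1b and -0.43 to 0.021 for Cdk1. In total RNA it ran from -0.14 to 0.14 for Mcm6, -0.017 to 0.43 for Mcm3, -0.43 to 0.23 for Mcm2, -0.13 to 0.17 for Mcm5, -0.30 to 0.31 for Rrm1, -0.13 to 0.73 for Nusap1 and -0.36 to 0.10 for Ccnb2. The cause was not tested.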
